A study of Mus musculus with 8 samples.

Results

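The genes described here encode subunits of the nucleosome remodelling and deacetylase complex (NuRD) that contains Mbd3. They are the 10 listed symbols Mbd2, Mbd3, Chd3, Chd4, Mta1, Mta2, Mta3, Gatad2a, Gatad2b and Hdac1. They were taken by symbol from the gene column of the count files, in which all 10 of the 10 had a row among 24421 genes. The rule uses the symbols and no measured value, although the list was drawn up with earlier results of these data known.

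Cells of R1, a pluripotent embryonic stem cell (ESC) line from the early mouse embryo, were compared before and after differentiation with retinoic acid (RA), a vitamin A derivative that switches on nuclear receptors in the embryo. Poly(A) RNA was read through nanopores (Oxford Nanopore Technologies, ONT) after library preparation with 2 kits, named platforms here. In ONT Direct RNA the native RNA strand is read in the pore, and in ONT cDNA the RNA is first copied and amplified. Each platform had 2 Undiff and 2 Day4 libraries, 8 in all. The paper describes duplicate samples of each state and used their RNA with both kits, so the platforms do not stand for separate cultures. Undiff cells came from growth medium before any RA. Day4 cells had been kept as embryoid bodies, floating clumps of differentiating ESCs, without LIF, the cytokine that holds ESCs undifferentiated, and then received RA for 4 days. The labels give the RA concentration in different units, and the paper states 2 µM. No gene was deleted or added, all cells came from the R1 line, and the tissue label reads embryoid bodies for Undiff and Day4 alike. The study followed exon usage of Mbd3 and Mta1 in these cells, which counts per gene cannot resolve.

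NuRD joins a chromatin remodeler with a histone deacetylase. A CHD protein (Chd3, Chd4 or Chd5) slides nucleosomes with the energy of ATP, and Hdac1 or Hdac2 removes acetyl groups from histones. Mta proteins scaffold the deacetylases and the histone chaperones Rbbp4 and Rbbp7, Gatad2 proteins bridge to the CHD protein, and either Mbd2, which binds methylated DNA, or Mbd3, whose binding to methylated DNA is weak, holds the parts together, so that Mbd2 and Mbd3 exclude each other from a complex. In ESCs the Mbd3 form is known for tuning the level of pluripotency genes and for being needed when the cells leave the undifferentiated state.

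Reads on genes ranged from 283461 to 907489 in the ONT Direct RNA libraries and from 948657 to 2088592 in the ONT cDNA libraries. Values are reads per 1e6 reads on genes (CPM), and 3 reads, taken as the limit that a count of 0 allows, correspond to between 1.44 and 10.6 CPM. The summed level of 7 pluripotency markers (Pou5f1, Nanog, Sox2, Zfp42, Esrrb, Dppa5a and Tdgf1) lay between 10584 and 12598 CPM in Undiff and between 109 and 518 CPM in Day4 by ONT Direct RNA, and between 20800 and 23494 CPM in Undiff and between 82.7 and 917 CPM in Day4 by ONT cDNA. The 7 RA response markers summed to between 8.61 and 78.0 CPM in the 4 Undiff libraries and to between 868 and 1238 CPM in the 4 Day4 libraries. Fibroblast and endoderm markers were higher in Day4 too, at 227 to 2960 CPM against 4.31 to 14.3 CPM and at 181 to 931 CPM against 0 to 8.61 CPM, apart from the fibroblast marker Thy1, whose mean was 7.61 CPM in Undiff and 2.03 CPM in Day4 by ONT Direct RNA and 5.6 and 0.481 CPM by ONT cDNA. Of 6 endothelial and blood markers, Ptprc and Hbb-bt were at 0 reads in every library. Cdh5 had 0 reads in Undiff and means of 18.6 and 6.85 CPM in Day4 by ONT Direct RNA and ONT cDNA. The summed level of the 6 was 81.5 to 149 CPM in Undiff and 173 to 207 CPM in Day4 by ONT Direct RNA and 53.8 to 63.2 CPM and 39.4 to 52.0 CPM by ONT cDNA, but its genes went opposite ways. Mean Kdr was at 1.43 and 47.2 CPM and Pecam1 at 88.3 and 34.3 CPM by ONT Direct RNA, and at 0.766 and 9.67 CPM and at 32.6 and 23.5 CPM by ONT cDNA, while Plvap was at 25.7 and 90.1 CPM and at 25.1 and 5.68 CPM. Neural markers summed to 626 and 628 CPM in Undiff and to 71.9 and 145 CPM in Day4 by ONT Direct RNA, where Ncam1 rose against the sum from a mean of 2.75 to 60.1 CPM, and to between 630 and 802 CPM in all ONT cDNA libraries, where mean Stmn2 went from 582 to 18.3 CPM and Tubb3 from 116 to 25.5 CPM while Ncam1 went from 16.2 to 584 CPM. In bulk RNA fewer cells of a type and less RNA per cell cannot be told apart. The part of these marker changes in the results below was not tested.

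A near-identical copy was taken as at least 90% identity over at least 50% of a member's longest transcript. Among annotated transcripts of other genes, Hdac1 was the only member with such copies. Part of its sequence is shown with that of its copies to let their likeness be seen, and whether the copies affect its read count was not tested. Hdac1 lies on chr4:129516104-129542713, minus strand, in GRCm38 (mm10) with the GENCODE vM21 annotation. Gm10093, a processed pseudogene on chr17:78491582-78493025, plus strand, matched 1444 bases of the Hdac1 transcript at 99.4% identity, and Gm4864, a processed pseudogene on chr12:77623549-77625009, minus strand, matched 1470 bases at 94.3%. One further copy matched 1450 bases at 96.3%. None of the 3 copies has a row in the count files. The first 120 coding bases of Hdac1, bases 85 to 204 of its longest transcript, and the matching stretch of both named copies follow, with the bases of a copy that differ from Hdac1 in capitals.
Hdac1: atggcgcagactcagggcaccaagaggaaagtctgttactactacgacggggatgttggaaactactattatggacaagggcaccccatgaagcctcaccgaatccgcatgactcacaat
Gm10093: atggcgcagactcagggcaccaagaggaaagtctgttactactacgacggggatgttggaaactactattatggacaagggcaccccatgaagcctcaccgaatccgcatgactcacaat
Gm4864: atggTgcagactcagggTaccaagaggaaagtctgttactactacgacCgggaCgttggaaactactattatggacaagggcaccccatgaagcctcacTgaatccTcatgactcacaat
Gm10093 differed from Hdac1 at 0 of these 120 bases and Gm4864 at 6.

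Between the states, Chd3 was higher and Mta3 lower in Day4 on both platforms. On the mean of 2 libraries, Chd3 rose from 8.49 to 136 CPM by ONT Direct RNA and from 1.53 to 25.8 CPM by ONT cDNA. Mta3 fell from 182 to 73.2 CPM and from 91.0 to 36.6 CPM. Gatad2a fell in ONT cDNA. Mbd3 and Chd4, which had most of the reads of their sets, were not called by DESeq2 on either platform, and edgeR called Mbd3 lower by ONT cDNA. A gene was called differentially expressed (DEG) when its mean normalised count was 5 or more, its fold change was 1 or more on the log2 scale in either direction, and the adjusted p from DESeq2, fitted to the 4 libraries of a platform, did not exceed 0.05. In ONT Direct RNA 2 of the 8 members with that mean were called, 1 higher and 1 lower, against 17.2% of the 9646 genes tested (9.54% higher, 7.67% lower). In ONT cDNA 3 of 9 members were called, 1 higher and 2 lower, against 17.9% of 10271 genes (8.69% higher, 9.24% lower). An unadjusted p under 0.05 was found for 4 of 8 and 4 of 9 members, against 30.7% and 31.2% of genes. The median log2 fold change of the members was 0.33 by ONT Direct RNA, beside 0.03 over all genes tested, and 0.08 by ONT cDNA, beside 0.00. With edgeR 4 of 8 members were called on each platform, against 35.5% of genes by ONT Direct RNA and 30.7% by ONT cDNA.

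**Figure D1:**
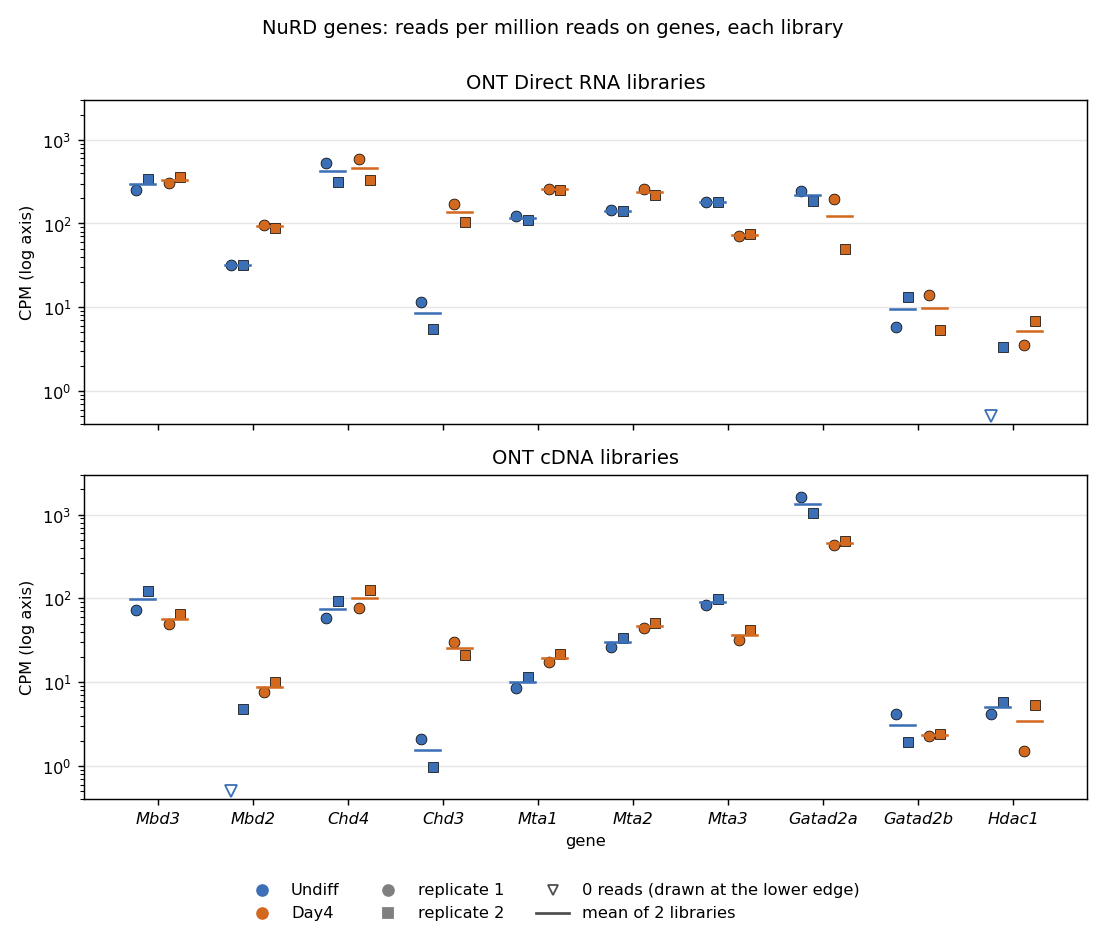
Level of each NuRD gene in every library, in CPM on a log axis, with ONT Direct RNA above and ONT cDNA below. Circles and squares are replicates 1 and 2, blue is Undiff and orange Day4, bars are the mean of 2 libraries, and open triangles mark libraries with 0 reads. Chd3 sat at 0.958 to 11.5 CPM in the Undiff libraries and at 21.2 to 169 CPM in the Day4 libraries, and Gatad2a stood at 1633 and 1049 CPM in the Undiff libraries of ONT cDNA and at 50.2 to 479 CPM in the other 6.

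Mbd3 is encoded on chr10:80392539-80399550, minus strand, with 6 annotated transcripts of 530 to 1662 bases. In ONT Direct RNA it had 253 and 339 CPM in the Undiff libraries and 303 and 358 CPM in the Day4 libraries. The states overlapped, and the log2 fold change of Day4 over Undiff was 0.05 ± 0.34 (SE, 2 libraries against 2, DESeq2 adjusted p = 0.97). In ONT cDNA it had 72.7 and 124 CPM in Undiff and 49.3 and 65.5 CPM in Day4. Here both Day4 libraries were below both Undiff libraries, by a log2 fold change of -1.08 ± 0.47, and the DESeq2 adjusted p of 0.13 missed the threshold. With edgeR the ONT cDNA value was -1.12 and passed it (adjusted p = 0.044). No other setting run called Mbd3 between states by ONT cDNA. With each library left out in turn, the DESeq2 value there ran from -1.4 to -0.74. Whether the change differed between platforms was tested by the interaction of platform and state over all 8 libraries. This fit took the 8 libraries as independent, although the paper describes RNA of the same samples in both kits. The interaction for Mbd3 was -1.16 ± 0.56 on the log2 scale, with an unadjusted p of 0.037 and a DESeq2 adjusted p of 1. By edgeR it was -1.09 with an unadjusted p of 0.041. An unadjusted p of at most 0.05 was reached by 0.932% of 17267 genes with DESeq2, which were not limited by mean count and so include many low genes, and by 3.03% of the genes that edgeR kept after its low-count filter. No member was called for the interaction by DESeq2 or edgeR, each of which called 2 genes (0.0116% and 0.0191% of those tested), and the other 7 members with a mean count of at least 5 had unadjusted DESeq2 p-values of 0.17 or more.

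Mbd2, the methylated DNA binding counterpart of Mbd3, lies on chromosome 18. It had 31.6 and 32.0 CPM in Undiff and 95.3 and 89.5 CPM in Day4 by ONT Direct RNA. The states did not overlap, and the ratio of pooled CPM was 2.86, with a 95% exact interval for counting error alone of 1.95 to 4.25. The log2 fold change was 1.37 ± 0.58, not called by DESeq2 (adjusted p = 0.12) and called by edgeR (1.47, adjusted p = 0.0049). In ONT cDNA it was at 0 reads, which allows up to 3.16 CPM, and at 4.79 CPM in Undiff, and at 7.59 and 10.1 CPM in Day4. That log2 fold change was 1.23 ± 1.12 (DESeq2 adjusted p = 0.67) and rested on 10 Undiff and 31 Day4 reads. Without Undiff replicate 1 it was 0.46 (DESeq2 adjusted p = 0.95) and without Undiff replicate 2, which held all 10 Undiff reads, it was 3.03 (adjusted p = 0.39). Of the reads on Mbd2 and Mbd3 together, Mbd3 took 88.9% and 91.4% in the Undiff libraries and 76.1% and 80.0% in the Day4 libraries of ONT Direct RNA. In ONT cDNA it took 100% and 96.3% in Undiff and 86.7% and 86.6% in Day4. The share of Mbd3 was lower in both Day4 libraries than in both Undiff libraries on each platform. With 2 libraries against 2 an exact test cannot go below p = 0.333, so the shares are given as descriptions.

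Chd4, the main remodeler of the complex in ESCs, is encoded on chr6:125095981-125130591, plus strand. It had 522 and 314 CPM in Undiff and 582 and 327 CPM in Day4 by ONT Direct RNA. The difference between replicates exceeded that between states, with a log2 fold change of 0.02 ± 0.36 (DESeq2 adjusted p = 0.98). In ONT cDNA it had 59.0 and 92.4 CPM in Undiff and 77.4 and 126 CPM in Day4, and the states overlapped again (0.08 ± 0.46, DESeq2 adjusted p = 0.95). A microRNA gene, Mir7045, shares 63 exonic bases with Chd4 on the same strand, so reads there can be ambiguous.

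Chd3, the alternative remodeler, is encoded on chr11:69343273-69369406, minus strand, and showed the largest log2 fold change of the members on both platforms. In ONT Direct RNA it had 4 and 5 reads in the Undiff libraries (11.5 and 5.51 CPM) and 48 and 76 reads in the Day4 libraries (169 and 103 CPM). In ONT cDNA it had 2 reads in each Undiff library (2.11 and 0.958 CPM, under 3 reads and so poorly known) and 40 and 44 reads in the Day4 libraries (30.3 and 21.2 CPM). The states were far apart on both platforms. Pooled over libraries, the ratio of Day4 to Undiff was 16.9 (95% exact interval for counting error 8.64 to 37.9) by ONT Direct RNA and 18.8 (7.07 to 70.5) by ONT cDNA. The log2 fold changes were 3.78 ± 0.68 (DESeq2 adjusted p = 1.5e-06) and 3.48 ± 0.93 (DESeq2 adjusted p = 0.0031). Leaving out 1 library kept the ONT Direct RNA call in every case, with 3.09 to 3.96. In ONT cDNA the call was lost without Undiff replicate 2 (2.69, DESeq2 adjusted p = 0.21), without Day4 replicate 1 (2.62, adjusted p = 0.35) and without Day4 replicate 2 (3.44, adjusted p = 0.11). In those fits the lone library of a state is assumed to vary like the pair of the other state. Chd3 made up 2.15% and 1.72% of the reads on Chd3 and Chd4 in Undiff and 22.5% and 24.0% in Day4 by ONT Direct RNA. By ONT cDNA its share was 3.45% and 1.03% in Undiff and 28.2% and 14.4% in Day4. Chd4 kept most of the reads of the pair in every library, and no mean share of a state given here moved by more than 2.90 percentage points when taken per kb of transcript.

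**Figure D2:**
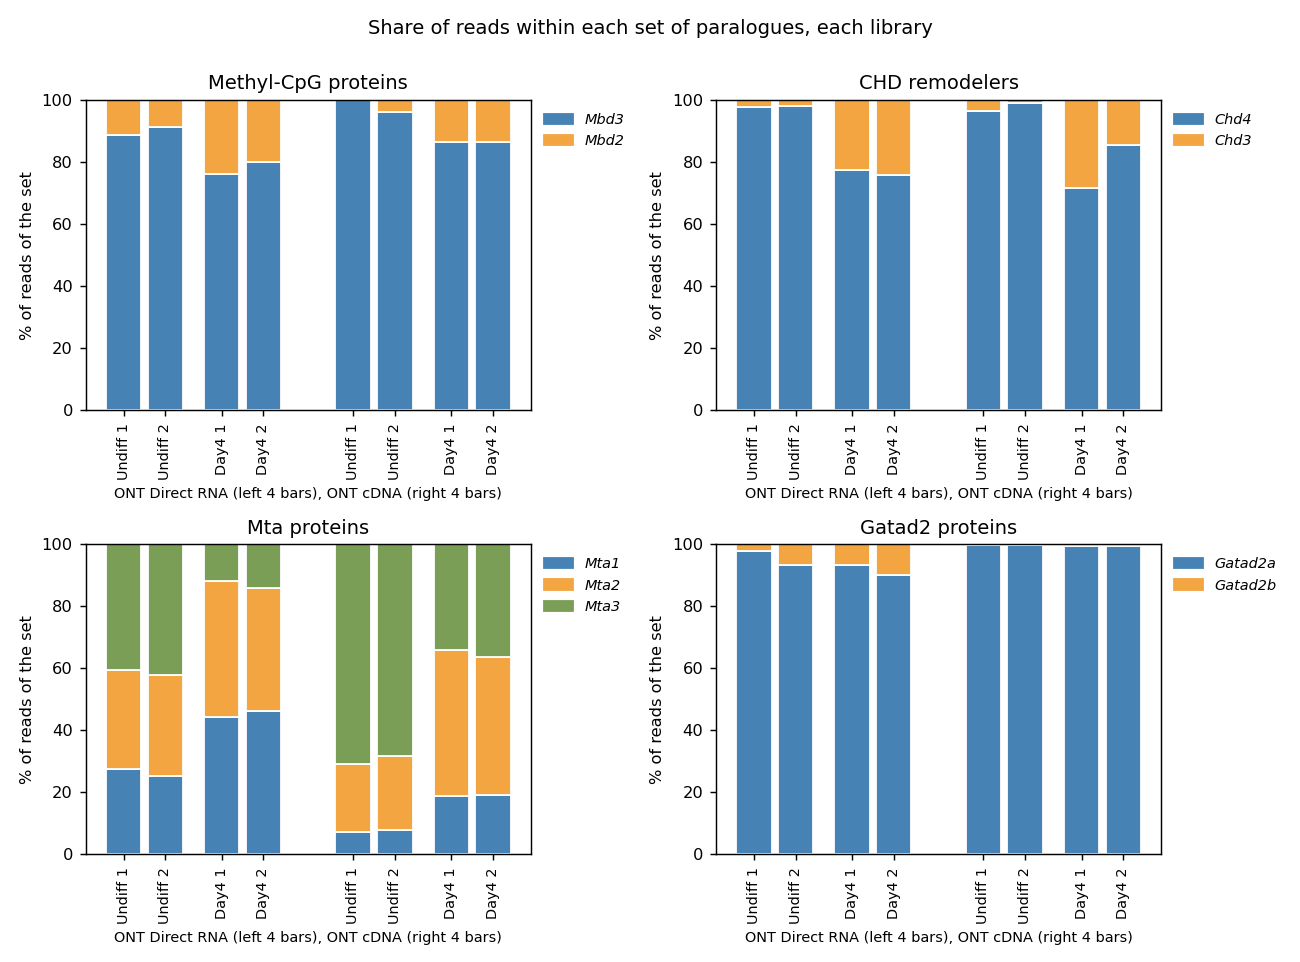
Share of reads within each set of alternative NuRD subunits, in percent of the reads of the set, for each library. Bars are single libraries, ONT Direct RNA on the left and ONT cDNA on the right of each panel, and colours are genes. The Chd3 share lay between 1.03% and 3.45% in the Undiff libraries and between 14.4% and 28.2% in the Day4 libraries, and the Mta3 share was lower in the Day4 libraries of each platform.

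The Mta genes encode the scaffold subunits. Mta3 (chr17:83706163-83821516, plus strand) had 181 and 183 CPM in Undiff and 70.6 and 75.9 CPM in Day4 by ONT Direct RNA, and 84.3 and 97.7 CPM in Undiff and 31.9 and 41.4 CPM in Day4 by ONT cDNA. The states did not overlap on either platform, and the replicates lay close together. The log2 fold change was -1.38 ± 0.44 (DESeq2 adjusted p = 0.019) by ONT Direct RNA and -1.60 ± 0.47 (DESeq2 adjusted p = 0.0085) by ONT cDNA, and Mta3 was called lower on both. Without any 1 of the 4 libraries of a platform the DESeq2 call was lost, while the log2 fold change stayed between -1.48 and -1.24 by ONT Direct RNA and between -1.68 and -1.43 by ONT cDNA. The adjusted p then ranged from 0.24 (without Day4 replicate 1) to 0.61 (without Undiff replicate 2) by ONT Direct RNA and from 0.09 (without Undiff replicate 1) to 0.27 (without Day4 replicate 1) by ONT cDNA.

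Mta1 (chr12:113098278-113137206, plus strand) moved the other way. It had 123 and 109 CPM in Undiff and 261 and 249 CPM in Day4 by ONT Direct RNA, with no overlap. The log2 fold change of 1.02 ± 0.38 was not called by DESeq2 (adjusted p = 0.064) and was called by edgeR (1.10, adjusted p = 0.0065). By ONT cDNA it had 8.43 and 11.5 CPM in Undiff and 17.4 and 21.7 CPM in Day4, from 32 and 68 reads in all, with a log2 fold change of 0.60 ± 0.73 (DESeq2 adjusted p = 0.81). Mta2 (chr19:8941875-8952303, plus strand) had 143 and 141 CPM in Undiff and 258 and 216 CPM in Day4 by ONT Direct RNA, and 26.4 and 34.0 CPM in Undiff and 44.0 and 50.5 CPM in Day4 by ONT cDNA. Both Day4 libraries were above both Undiff libraries on each platform, but the log2 fold changes of 0.61 ± 0.38 and 0.31 ± 0.53 were not called (DESeq2 adjusted p = 0.40 and 0.91).

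Within the 3 Mta genes, as shares of their reads, the order changed between states. Mta3 took 40.4% and 42.2% in Undiff and 12.0% and 14.0% in Day4 by ONT Direct RNA, and 70.8% and 68.2% in Undiff and 34.1% and 36.4% in Day4 by ONT cDNA. Mta1 took 27.6% and 25.2% in Undiff and 44.3% and 46.1% in Day4 by ONT Direct RNA, and 7.08% and 8.03% in Undiff and 18.7% and 19.1% in Day4 by ONT cDNA. Mta2 took 22.1% to 32.6% in the 4 Undiff libraries and 39.8% to 47.2% in the 4 Day4 libraries. Mta3 was the member with the most reads of the 3 in every Undiff library. In Day4 that place was held by Mta1 in both ONT Direct RNA libraries, ahead of Mta2 by 1 read in replicate 1, and by Mta2 in both ONT cDNA libraries.

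Gatad2a (chr8:69907076-69996384, minus strand), which joins the CHD protein to the rest of the complex, had 247 and 187 CPM in Undiff and 194 and 50.2 CPM in Day4 by ONT Direct RNA. Day4 replicate 1 lay inside the Undiff range and Day4 replicate 2 far below it. The log2 fold change was -0.96 ± 0.51 (DESeq2 adjusted p = 0.28). Without Day4 replicate 1 it was -2.04 and called (DESeq2 adjusted p = 0.0062), and without Day4 replicate 2 it was -0.26 (adjusted p = 0.98), so a single library decided this value. In ONT cDNA Gatad2a had 1633 and 1049 CPM in Undiff and 435 and 479 CPM in Day4. The states did not overlap, and the log2 fold change of -1.86 ± 0.40 was called (DESeq2 adjusted p = 8.4e-05). It was called without any 1 library too, with -2.21 to -1.50. The difference between platforms in this change was not called (interaction -0.92 ± 0.68, DESeq2 adjusted p = 1).

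Gatad2b (chr3:90293178-90363407, plus strand), the counterpart of Gatad2a, was near the lowest countable level. It had 2, 12, 4 and 4 reads in Undiff replicates 1 and 2 and Day4 replicates 1 and 2 by ONT Direct RNA, and 4, 4, 3 and 5 reads by ONT cDNA. Its mean normalised count was under 5 on both platforms, and a change was not detectable at this depth. Gatad2a took 90.2% to 97.7% of the reads of the pair by ONT Direct RNA and 99.5% to 99.8% by ONT cDNA.

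Hdac1, a catalytic subunit, was the other member with hardly any reads. It had 0 and 3 reads in Undiff and 1 and 5 reads in Day4 by ONT Direct RNA, where 0 reads in Undiff replicate 1 allow up to 8.61 CPM. By ONT cDNA it had 4 and 12 reads in Undiff and 2 and 11 reads in Day4. No fold is given, because most values are at or near 3 reads. Its paralogue Hdac2, the other deacetylase of NuRD, had 194 ± 26.3 CPM in Undiff and 331 ± 45.1 CPM in Day4 by ONT Direct RNA (SD, n = 2). The share of reads set aside by the authors' counter for low mapping quality lay between 18.5% and 28.0% of all records in the 8 libraries. How many of those came from Hdac1 and its copies shown above was not tested, since the counts per gene do not hold it.

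**Figure D3:**
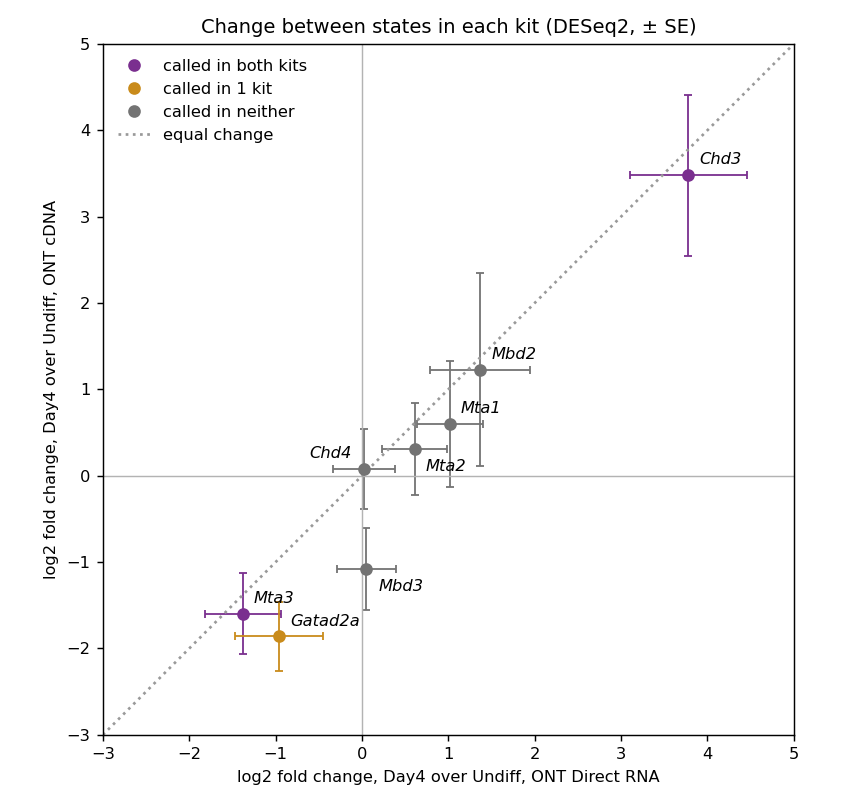
Log2 fold change of Day4 over Undiff by ONT Direct RNA (x axis) and ONT cDNA (y axis) for the 8 members with a mean count of at least 5 on both platforms, with SE bars from DESeq2. Purple genes were called on both platforms, the amber gene in ONT cDNA, and grey genes on neither. Chd3 lay at 3.78 and 3.48, Mta3 at -1.38 and -1.60, and Mbd3 off the line of equal change at 0.05 and -1.08.

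Counted by overlap of the libraries in CPM, 5 of the 8 members tested by ONT Direct RNA had states that did not overlap, 4 higher (Mbd2, Chd3, Mta1 and Mta2) and 1 lower (Mta3) in Day4, where 67.6% of all tested genes had none (37.3% higher, 30.3% lower). By ONT cDNA it was 7 of 9, with the same 4 higher and Mbd3, Mta3 and Gatad2a lower, where 66.3% of all tested genes had none. These counts are near the background and say nothing particular of the members. CPM divides by all reads on genes and DESeq2 by the median ratio of genes, and by ONT cDNA the CPM scale placed more genes higher in Day4 (43.1%) than lower (23.2%). The summed level of the 10 members was 1518 and 1328 CPM in Undiff and 1951 and 1481 CPM in Day4 by ONT Direct RNA, which overlapped. By ONT cDNA it was 1894 and 1422 CPM in Undiff and 696 and 823 CPM in Day4, and Gatad2a alone made 58.2% to 86.2% of it. Without Gatad2a the ONT Direct RNA sums were 1271 and 1141 CPM in Undiff and 1757 and 1430 CPM in Day4, with no overlap. The ONT cDNA sums were then 261 and 373 CPM in Undiff and 262 and 344 CPM in Day4, which overlapped.

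Between genes, levels were compared per kb of the longest annotated transcript, in CPM per kb, although a nanopore read can span a whole transcript. In plain CPM, mean Chd4 lay above mean Mbd3 by ONT Direct RNA, with overlapping libraries. These means were 418 and 296 CPM in Undiff and 454 and 331 CPM in Day4. In Undiff by ONT Direct RNA, Mbd3 was the highest member at 178 ± 37.0 CPM per kb (SD, n = 2), ahead of Chd4 at 62.4 ± 22.0, Mta3 at 55.3 ± 0.457, Mta2 at 45.4 ± 0.551, Gatad2a at 43.4 ± 8.40 and Mta1 at 41.1 ± 3.58. Chd4 overlapped Mta3 and Gatad2a, Gatad2a overlapped Mta2 and Mta1, and both Mta3 libraries were above those of Mta2, Gatad2a and Mta1. Mbd2 followed at 16.3 ± 0.141, and Gatad2b, Chd3 and Hdac1 lay at 1.27 or below. In Day4 by ONT Direct RNA, Mbd3 led again at 199 ± 23.2 CPM per kb, followed by Mta1 at 90.3 ± 2.90, and by Mta2 at 75.5 ± 9.46 and Chd4 at 67.9 ± 27.0, of which the latter pair overlapped. Mbd2 was then at 47.3 ± 2.09, Gatad2a at 24.4 ± 20.3, Mta3 at 22.3 ± 1.15 and Chd3 at 18.8 ± 6.46, the latter 3 overlapping.

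By ONT cDNA the order was another. Gatad2a led in Undiff at 268 ± 82.5 CPM per kb and in Day4 at 91.3 ± 6.32. Mbd3 came next in both states, at 59.2 ± 21.8 and 34.5 ± 6.87. Mta3 followed in Undiff at 27.7 ± 2.87. In Day4 Chd4 at 15.2 ± 5.10 overlapped Mta2 at 15.1 ± 1.48 and Mta3 at 11.1 ± 2.05. Mbd2 was at 1.23 ± 1.73 and 4.53 ± 0.913. In plain CPM, Chd4 at 102 ± 34.1 lay above Mbd3 at 57.4 ± 11.4 in Day4.

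Set between platforms with state as covariate, 7 of the 8 members tested differed, against 51.3% of 10426 genes. This fit, too, took all libraries as independent. Mbd2 (-2.61 ± 0.41), Mbd3 (-1.30 ± 0.29), Chd3 (-1.64 ± 0.44), Chd4 (-1.54 ± 0.26), Mta1 (-2.87 ± 0.26) and Mta2 (-1.53 ± 0.22) were lower in ONT cDNA than in ONT Direct RNA on the log2 scale, where 26.6% of all genes were called lower and 24.7% higher. Their DESeq2 adjusted p-values ran from 5.4e-26 for Mta1 to 0.00089 for Chd3. Gatad2a was higher in ONT cDNA by 3.01 ± 0.37 (DESeq2 adjusted p = 2.3e-14), an 8.07-fold difference, and 2.36% of the genes tested had a larger value in that direction. For Mta1, at the other end, 95.8% of the genes had a higher value. Mta3 did not pass the threshold (-0.25 ± 0.21, DESeq2 adjusted p = 0.45). The longest transcripts of these 8 genes run from 1662 bases for Mbd3 to 7261 bases for Chd3, and both of these were lower in ONT cDNA, as was Mbd2 at 1953 bases. The platforms also differed in input, at 500 ng of poly(A) RNA for ONT Direct RNA and 50 ng for ONT cDNA, in amplification and in base calling, and the part of each in these differences cannot be told apart.

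**Figure D4:**
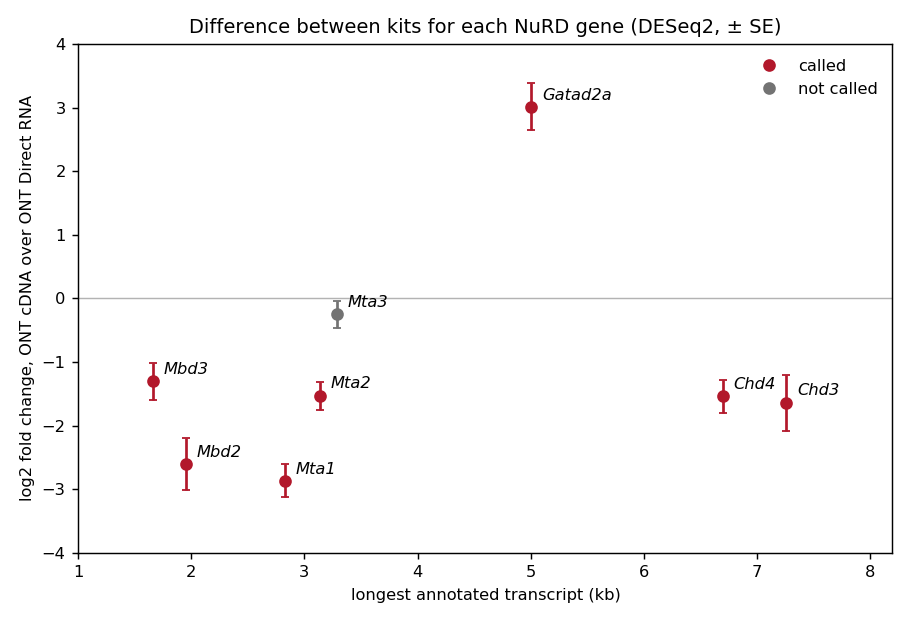
Difference between platforms for 8 NuRD genes, as the log2 fold change of ONT cDNA over ONT Direct RNA with state as covariate and SE bars from DESeq2, against the length of the longest annotated transcript in kb. Red genes were called. Gatad2a is the only gene above 0, at 3.01, and the other 7 lie between -2.87 and -0.25.

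The other subunits of NuRD were Hdac2, the histone chaperones Rbbp4 and Rbbp7, the remodeler Chd5 and Cdk2ap1, a small protein found with the complex. None of the 4 with a mean count of at least 5 was called between states by DESeq2 on either platform, against 17.2% and 17.9% of all genes, and none by edgeR. With DESeq2 1 of the 4 by ONT Direct RNA and 0 by ONT cDNA had an unadjusted p under 0.05, against 30.7% and 31.2% of all genes. Hdac2 gave 0.66 ± 0.35 (DESeq2 adjusted p = 0.26) and 0.61 ± 0.54 (adjusted p = 0.65) by ONT Direct RNA and ONT cDNA, Rbbp4 gave -0.77 ± 0.36 (adjusted p = 0.17) and -0.53 ± 0.40 (adjusted p = 0.54), and Rbbp7 gave 0.21 ± 0.30 (adjusted p = 0.86) and -0.04 ± 0.47 (adjusted p = 0.98). Chd5 had 7 reads over the 8 libraries together.

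Several genes whose proteins are known to recruit or accompany NuRD changed in RNA level between states. Of 12 such genes, 11 were tested by ONT Direct RNA, with 1 called higher (9.54% of all genes) and 5 lower (7.67% of all genes). By ONT cDNA 9 were tested, with 0 called higher and 4 lower (8.69% and 9.24% of all genes). The list was compiled with earlier results of these data known, so the counts beside these shares are no test of the partners. Sall4, a zinc finger factor of pluripotent cells that binds NuRD, fell from 141 and 163 CPM to 10.6 and 1.36 CPM (3 reads and 1 read) by ONT Direct RNA and from 1885 and 2149 CPM to 78.9 and 217 CPM by ONT cDNA. Its log2 fold changes were -4.81 ± 0.76 and -4.05 ± 0.44 (DESeq2 adjusted p = 2.0e-08 and 5.5e-18). Sall1, a relative of Sall4, fell by 3.24 and 4.70 on the log2 scale (DESeq2 adjusted p = 6.7e-05 and 4.9e-12). Zfp296 and the RNA-binding protein gene Lin28a also fell on both platforms, by 5.69 and 3.91 and by 4.39 and 4.5 on the log2 scale (DESeq2 adjusted p = 1.3e-10, 0.049, 0.0062 and 1.3e-25). Wdr5, which binds histone H3 and an isoform of Mbd3, was called lower by ONT Direct RNA (-1.73 ± 0.42, DESeq2 adjusted p = 0.001) and not by ONT cDNA (-0.96 ± 0.53, adjusted p = 0.30). That difference between platforms was itself not called (interaction 0.76 ± 0.65, DESeq2 adjusted p = 1). Zfpm1, a GATA cofactor that binds NuRD, rose by ONT Direct RNA from 11.5 and 6.61 CPM to 134 and 85.4 CPM (3.35 ± 0.69, DESeq2 adjusted p = 4.9e-05) and had 9 reads in all by ONT cDNA.

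**Figure D5:**
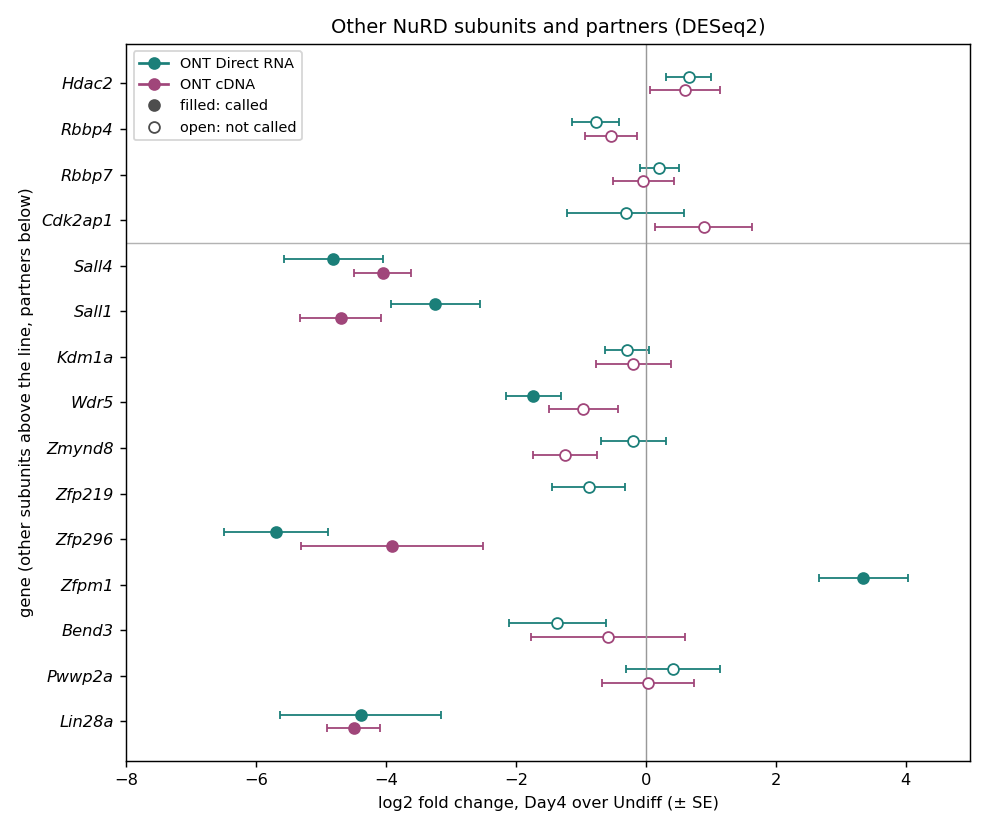
Log2 fold change of Day4 over Undiff (DESeq2, SE bars) for genes of other NuRD subunits, above the line, and of partner proteins, below it. ONT Direct RNA is in green and ONT cDNA in purple, where the mean count was at least 5. Filled points were called. The subunits lie between -0.77 and 0.89, and Sall4, Sall1, Zfp296 and Lin28a lie at -3.24 or below on both platforms.

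Of 6 pluripotency genes known to be tuned by Mbd3 and NuRD in ESCs, 5 were called lower by ONT Direct RNA and 4 by ONT cDNA, against 7.67% and 9.24% of all genes. Zfp42 (-6.24 ± 0.43 and -5.33 ± 1.08), Esrrb (-5.73 ± 0.64 and -4.93 ± 0.75), Klf5 (-3.94 ± 0.93 and -3.62 ± 0.69) and Klf4 (-3.73 ± 0.75 and -2.44 ± 0.81) were called on both platforms. Tfcp2l1 was called lower by DESeq2 in ONT Direct RNA only and by edgeR on both platforms, and Tbx3 was not called. The list was compiled with these results known and shares Zfp42 and Esrrb with the pluripotency markers. Among 27 genes of other complexes with class I deacetylases that had a row, Sin3a was called lower (-1.92 ± 0.50) and Rcor1 higher (2.50 ± 0.88) by ONT Direct RNA, and Arid4b (1.88 ± 0.65), Phf21a (1.99 ± 0.67) and Rcor3 (2.42 ± 0.74) were called higher by ONT cDNA. The 25 with a mean count of at least 5 thus gave 2 and 3 calls with DESeq2, against 17.2% and 17.9% of all genes. With edgeR 9 of 23 were called by ONT Direct RNA (7 higher, 2 lower) and 3 of 25 by ONT cDNA, against 35.5% and 30.7%. Of 6 other methyl-CpG binding proteins, Mbd1 gave 2.04 ± 0.70 by ONT cDNA (DESeq2 adjusted p = 0.035) and 2.40 ± 0.98 by ONT Direct RNA (adjusted p = 0.10), and was called higher by DESeq2 in the former and by edgeR in both (adjusted p = 0.0085 and 0.002). It was the only call among the 4 and 5 of them tested by DESeq2 in ONT cDNA and ONT Direct RNA, where 8.69% and 9.54% of all genes were called higher. None of 7 other CHD remodelers was called by DESeq2 on either platform (0 and 1 with an unadjusted p under 0.05), and edgeR called 0 and 1.

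The pattern of Mbd3 over the 8 libraries was compared with that of 1937 genes that had at least 20 reads in every library, by Pearson correlation of log2(CPM + 1) centred within each platform. The most similar were Slc25a1, a mitochondrial citrate carrier (r = 0.889), the ribosomal protein gene Rps26 (0.873), Ly6e, a surface protein (0.839), Ehmt2, a histone H3 methyltransferase (0.830), and the splicing factor gene Snrpb2 (0.827). The members that entered gave 0.469 for Mta3, 0.16 for Gatad2a, -0.136 for Chd4 and -0.195 for Mta2. The 8 points share platform depth and state, so the values are descriptions.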

How the data were processed

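The authors deposited raw counts of reads for each gene, made with HTSeq from minimap2 alignments to mm10 with the UCSC annotation of iGenomes. ONT Direct RNA was counted by strand, and the strand setting for ONT cDNA is not given in the sources used here. The methods describe biological replicates. Groups and replicate numbers came from the sample titles. The members and all gene lists were chosen with earlier results of these data known, and the named-gene rule was all 10 members, called subunits and partners, at most the 4 largest calls per platform of each other list, and the 5 genes most like Mbd3.

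DESeq2 1.42.0 (R 4.3.3) was fitted over all genes with the study's settings: shrunken fold changes, Cook's cutoff and independent filtering off, and Benjamini-Hochberg adjustment. The interaction fit had no shrinkage and was called on adjusted p alone. edgeR 4.0.16 quasi-likelihood tests with its own low-count filter, TMM factors, no shrinkage, at least 10 reads in every library, both filters on, a replicate block and leaving out each library were the alternatives. The fits were tested on simulated data. The 5 counter records of reads given to no gene were left out. Intervals are Wilson or exact at 95%, and cover counting error only. They leave out variation between libraries, and the amplified reads of ONT cDNA are not independent molecules either. Copies of members were searched among GENCODE transcripts with BLAST 2.17.0. Short-read libraries were not analysed here.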

Additional observations from a re-analysis of the deposited data

How the results depend on the processing

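Which members were called between states depended on the processing. By ONT Direct RNA the 2 calls became 4 with edgeR (Mbd2 and Mta1 added), 3 with a minimum of 10 reads in every library (Mbd2, Mta1 and Mta3) and 3 with both filters on, and ranged from 1 to 2 when 1 library was left out. By ONT cDNA the 3 calls became 4 with edgeR and 2 with the minimum of 10 reads, and ranged from 1 to 2 when 1 library was left out. The minimum of 10 reads took Chd3 out of both fits. Between platforms the 7 calls became 4 with that minimum, by which Mbd2, Chd3 and Mta1 were not tested, and were 7 under every other setting run. The cause of the other changes was not tested.

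No member was called for the interaction under any setting. Its sign turned for Chd3 with TMM factors (0.04 against -0.08), which moved the median of all genes from -0.06 to 0.05, and for Mbd2 with the replicate block (0.23). When 1 library was left out, some signs turned. The state values then ran from -0.26 to 0.29 for Mbd3, -0.35 to 0.37 for Chd4 and -0.55 to 0.38 for Gatad2b by ONT Direct RNA and from -0.21 to 0.35 for Chd4 by ONT cDNA. The interactions ran from -0.27 to 0.50 for Chd4, -0.88 to 0.51 for Chd3, -1.62 to 0.27 for Gatad2a, -1.34 to 0.26 for Gatad2b and -0.79 to 3.58 for Mbd2, the last value without its only Undiff reads by ONT cDNA. The ratio of summed CPM, 1.21 by ONT Direct RNA and 0.458 by ONT cDNA, ranged from 1.04 to 1.37 and from 0.401 to 0.534. Mean shares within sets moved by at most 2.90 percentage points per kb, beyond 1 SD in 11 of 24, and by at most 6.90 without 1 library.

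Nothing in the labels ties same-numbered libraries of the states together. With the replicate block the ONT Direct RNA calls were 1 (Chd3, with Mta3 at -1.36 and DESeq2 adjusted p = 0.15), the ONT cDNA calls stayed at 3 and the platform calls at 7. Deviations of same-numbered libraries correlated at 0.50 between the states of ONT cDNA, 0.214 between those of ONT Direct RNA, 0.124 between the Undiff pairs of the platforms and -0.415 between their Day4 pairs, and the pairing with Day4 numbers crossed, added after seeing the data, gave 7 calls too. Over all genes the called number moved from 1660 to 2993 (edgeR), 723 (minimum of 10 reads), 843 (replicate block) by ONT Direct RNA, from 1842 to 2814, 989 and 1375 by ONT cDNA, and from 5344 to 1674 with the minimum between platforms. Without 1 library it was 393 to 797 by ONT Direct RNA and 709 to 1020 by ONT cDNA. Few reads limit what can be said of Hdac1, Gatad2b and, by ONT cDNA, Mbd2.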
